A study of Mus musculus with 2 samples.

Results

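Spp1 C1q macrophages were found in lungs injured with bleomycin (BLM) and were almost absent from naive lungs. A cell was counted as a member by the unique molecular identifiers (UMIs) of 18 genes, each UMI standing for a captured transcript. C1qa, C1qb, C1qc and Ms4a7 together had to make up 0.1% or more of the UMIs of the cell, and had to reach at least the sum of 7 genes of alveolar macrophages (Plet1, Car4, Atp6v0d2, Marco, Ear1, Krt79 and Siglecf). Spp1, Arg1 and Gpnmb together had to make up 0.1% or more, and the cell cycle genes Mki67, Top2a, Birc5 and Ube2c together had to stay under 4 UMIs. Of 8451 cells that passed a minimum of 200 detected genes and a maximum of 15% of UMIs from mitochondrial genes, 308 were members. The BLM library held 307 of them among 4526 cells, or 6.78% (95% Clopper-Pearson interval 6.07 to 7.55%), and the naive library held 1 among 3925 cells, or 0.0255% (0.000645 to 0.142%). Since these genes chose the cells, their levels are given below as descriptions.

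Living CD45+ cells had been sorted from lungs of wild-type C57BL/6N mice. The BLM library held cells taken at day 15 after 50 µg bleomycin into the trachea of mice aged 10 to 16 weeks, and the naive library those of mice that received nothing. For each, equal numbers of cells of 3 mice were pooled, without a record of which cell came from which mouse, and there was 1 library per group. The spread between animals was therefore not measured, library and group cannot be told apart, and no difference below was tested: intervals are exact 95% intervals of the counts and cover counting error only.

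Bleomycin damages the alveolar epithelium and leads to inflammation followed by fibrosis. Lung macrophages comprise alveolar macrophages of the airspace and interstitial macrophages of the tissue, and monocytes that enter after injury become macrophages of both sites. C1q, the first component of the classical complement pathway, is made by tissue macrophages. Spp1 encodes osteopontin, a secreted phosphoprotein that binds CD44 and integrins, Arg1 encodes arginase, which splits arginine into ornithine and urea, and Gpnmb encodes a membrane glycoprotein of lysosome-rich macrophages. Macrophages with Spp1, Gpnmb, Trem2, Cd9 and Fabp5 are known from scarred lung and liver as scar-associated or lipid-associated macrophages.

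The 2 tables held 4714 BLM barcodes with 22490782 UMIs and 4062 naive barcodes with 18019004 UMIs. Members were deep cells, with a median of 10415 UMIs and 2968 genes and with 3202327 UMIs in all. They were set beside 161 BLM cells that met the C1q limit with Spp1, Arg1 and Gpnmb under 0.1% (C1q macrophages with little Spp1, median 8043 UMIs), 485 BLM cells in which the alveolar sum was 0.1% or more and above the C1q sum (alveolar macrophages, median 11679 UMIs), and 92 naive C1q macrophages (median 5383 UMIs), 1 of which was the naive member. Of the members, 11 lay in the 3% of BLM barcodes with the highest Scrublet doublet score, and 2 had a cell index that also occurs in the naive table, among 22 indices shared by the libraries. There were 23 further BLM cells that met every limit other than the one on the cell cycle genes, and these were left out.

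The markers fitted the label. All 8 macrophage markers (Adgre1, Csf1r, Mertk, Fcgr1, Cd68, Lyz2, Mrc1 and Apoe) were detected, and 305 of the 307 members had 3 or more UMIs of them. Their summed level was 41772 CPM in members (UMIs of a gene for every 1000000 UMIs of all genes, summed over the cells of a group). It was 27760 CPM in C1q macrophages with little Spp1 and 31518 CPM in alveolar macrophages. The sum did not hold gene by gene. Against C1q macrophages with little Spp1, 5 of the 8 were higher in members. For 3 the interval of the log2 ratio lay below 0, and Mrc1 and Csf1r were the lowest. Against alveolar macrophages, 6 of the 8 were higher. Of the markers of other cells, those of classical monocytes were the most abundant, at 745 CPM in members, 1274 CPM in C1q macrophages with little Spp1 and 369 CPM in alveolar macrophages, and 166 members had 3 or more UMIs of them. The 5 B cell markers summed to 44.3 CPM, against 7344 CPM in BLM B cells, the 5 T cell markers to 39.7 CPM, the 5 NK cell markers to 36.5 CPM and the 5 dendritic cell markers to 11.2 CPM, and none of these markers was at 0. Stromal, epithelial and endothelial markers summed to 25.9, 6.87 and 7.18 CPM. The 5 neutrophil markers, of which all were detected, reached 338 CPM in members, 236 CPM in C1q macrophages with little Spp1, 297 CPM in alveolar macrophages and 46966 CPM in BLM neutrophils. They were found with 3 or more UMIs in 103 members, and their part in the results was not tested. In sums over cells of this kind a gene that is lower may be so in every cell or in fewer cells, so the share of cells with a UMI is given where it helps.

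Members made up 307 of 468 BLM C1q macrophages (65.6%, 61.1 to 69.9%) and 1 of 92 naive C1q macrophages (1.09%, 0.0275 to 5.91%). The naive cell carried 44 Gpnmb UMIs and none of Spp1 or Arg1, and it lay among the highest doublet scores of its library. The limit on the Spp1 sum cut through a continuous range: the 5 members just inside it had sums of 0.101 to 0.106% of UMIs and the 5 cells just outside had 0.0824 to 0.0982%. Alveolar macrophages of the BLM library reached the same limit in 368 of 485 cells (75.9%), against 127 of 684 (18.6%) in naive lung, so the 3 genes were not confined to cells with C1q.

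**Figure D1:**
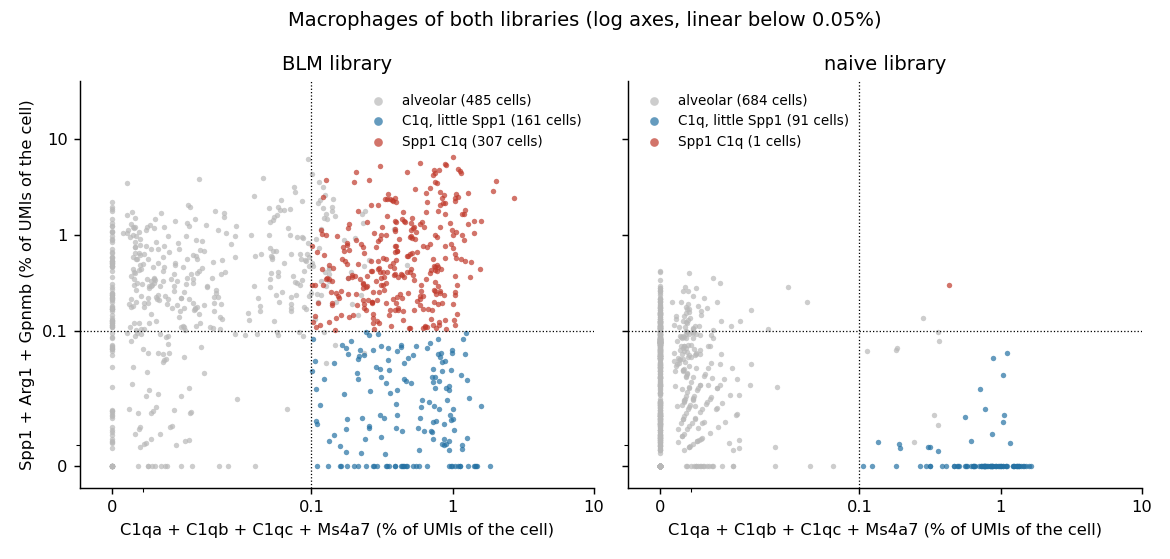
Each point is a macrophage, placed by the percent of its UMIs in C1qa, C1qb, C1qc and Ms4a7 (x axis) and in Spp1, Arg1 and Gpnmb (y axis), on log axes that are linear below 0.05%, with the BLM library on the left and the naive library on the right. Dotted lines mark the limits at 0.1%. The 307 members fill the upper right of the BLM panel, while the naive panel holds 1 there.

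Spp1 was the most abundant of the 3 genes in members, at 8892 CPM (8789 to 8996), followed by Gpnmb at 1680 CPM (1635 to 1726) and Arg1 at 1395 CPM (1355 to 1437). The same genes stood at 178, 27.9 and 115 CPM in C1q macrophages with little Spp1, at 5426, 335 and 782 CPM in alveolar macrophages, and at 12.9, 101 and 7.37 CPM in naive C1q macrophages. B cells of the BLM library, which should lack all 3, gave 78.6 CPM of Spp1, 23.1 CPM of Arg1 and 9.24 CPM of Gpnmb. With each cell thinned to 1000 UMIs, which left out 18 members, a Spp1 UMI was found in 73.1% of members, 14.9% of C1q macrophages with little Spp1, 68.2% of alveolar macrophages and 6.92% of B cells. Members held 39.4% of all Spp1 UMIs of the BLM library, 36.5% of its Arg1 UMIs and 61.6% of its Gpnmb UMIs, and alveolar macrophages held 43.7%, 37.3% and 22.4%.

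The 3 genes were spread unevenly over the members. Without thinning, a UMI of Spp1 was present in 284 members, of Arg1 in 247, of Gpnmb in 175, and of all 3 in 132 of the 307. Spp1 ranged from 0 to 5.81% of the UMIs of a cell, with a median of 0.263%, Arg1 from 0 to 1.27% with a median of 0.107%, and Gpnmb from 0 to 1.71% with a median of 0.0143%. The 31 members with most UMIs of a gene held 60.9% of all Spp1 UMIs and 67.8% of all Gpnmb UMIs, but 38.0% of those of Arg1. The C1q genes were more even: C1qa was at 1386 CPM, C1qb at 1862 CPM and C1qc at 1805 CPM, close to the 1493, 1875 and 1724 CPM of C1q macrophages with little Spp1, and each was found in 289 or more members. Ms4a7 was lower, at 280 CPM, and was found in 158 members.

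Of the 7 alveolar genes of the rule, only Atp6v0d2, a subunit of the vacuolar proton pump that is known from osteoclasts and macrophages, was abundant in members. It stood at 698 CPM, against 69.7 CPM in C1q macrophages with little Spp1 and 1325 CPM in alveolar macrophages. Plet1 was at 85.6 CPM in members and 2339 CPM in alveolar macrophages, Car4 at 19.0 and 905 CPM, and Krt79 was at 0 in members, which allows up to 0.937 CPM. In 93 members the alveolar sum itself reached 0.1% of UMIs, and 86.4% of those UMIs were Atp6v0d2, against 26.7% in alveolar macrophages. None of these 93 cells lay in the 3% with the highest doublet scores, and their median was 12226 UMIs, against 9726 in the other 214.

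The first comparison set members beside C1q macrophages with little Spp1 of the same library, that is, it asked what else differed between C1q macrophages that were split by Spp1, Arg1 and Gpnmb. Since that split used these same cells, values are descriptions. Genes of lysosomal proteolysis and lipid handling were higher in members, as were alveolar macrophage genes outside the rule. Genes of resident interstitial macrophages, of antigen presentation and of several chemokines were lower. Among 5492 genes with a mean level of 20 CPM or more, 290 (5.28%) were 2-fold or more apart, 112 (2.04%) higher and 178 (3.24%) lower in members, and the median log2 ratio of all genes was -0.04.

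Scar-associated genes stood higher throughout. All 10 of the list were 2-fold or more higher, with a median log2 ratio of 1.52. This list, like the others here and below, was chosen with earlier results of these data known. Ctsk, Syngr1, Ctsd and Fabp5 are also among the 10 highest genes of this comparison, so the count is a description. Ctsk, the collagen-degrading cathepsin of osteoclasts, was at 320.4 CPM in members and 42.6 CPM in the other cells, a log2 ratio of 2.91 (2.53 to 3.32), and Syngr1, a vesicle membrane protein, was at 100.2 and 14.7 CPM (2.77, 2.12 to 3.50). Ctsd, the main aspartic protease of lysosomes, was at 4655 against 1044 CPM (2.16, 2.08 to 2.24), and Fabp5, which carries fatty acids in the cytoplasm, at 1604 against 412 CPM (1.96, 1.84 to 2.09). Trem2, a lipid-sensing receptor, was at 513 against 222 CPM, and the smallest differences of the list were those of Apoe, the lipid carrier of macrophages (1.02), and Lgals3, galectin-3 (1.13). The 93 members with a high alveolar sum carried much of this: without them, 6 of the 10 genes were 2-fold or more higher, the median was 1.17, and Ctsk was at 156 CPM (log2 ratio 1.87), against 613 CPM in the 93 cells themselves. The count of genes 2-fold or more higher was then 65 in place of 112.

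Lysosomal genes were higher by less. All 19 had log2 ratios above 0, with a median of 0.44, while 2 of them, Ctsd and Ctsl, passed 2-fold. Ctsl, a cysteine cathepsin, was at 1236 CPM in members, 355 CPM in C1q macrophages with little Spp1 and 422 CPM in alveolar macrophages. Psap, the precursor of the saposins, was at 15220 CPM in members against 8895 CPM, and Lipa, the acid lipase that frees cholesterol, at 1391 against 701 CPM. Of the 12 lipid genes measured, 5 were 2-fold or more higher and all 12 were above 0 (median 0.89). Lpl, lipoprotein lipase, was at 3625 against 1299 CPM and Abcg1, a cholesterol exporter, at 309 against 140 CPM, whereas the smallest ratios were those of Scd2 (0.24) and Abca1 (0.27). Without the 93 members with a high alveolar sum, 3 lipid genes passed 2-fold and 11 of 12 were above 0, Fabp4 standing at 26.8 against 47.0 CPM.

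Outside the lists, the genes farthest apart included membrane transporters. Slc36a2, an amino acid transporter, was at 60.3 CPM in members and 3.67 CPM in the other cells (log2 ratio 4.04, 2.79 to 5.68) and was found in 28.7% and 3.11% of cells, and Slc6a8, the creatine transporter, was at 54.6 and 5.14 CPM (3.41, 2.34 to 4.75). Cspg4, a membrane proteoglycan, was at 65.6 and 1.47 CPM (5.48, 3.61 to 8.54) and came from 19.9% of members. Rnf128, a ubiquitin ligase, was found in 50.5% of members and 22.4% of the other cells, at 199 and 45.5 CPM. At these levels many cells hold no UMI by depth alone, so the shares do not say how many members express the genes.

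Resident interstitial genes were lower in 11 of 12 cases by 2-fold or more, with a median log2 ratio of -2.09. Lyve1, the hyaluronan receptor of perivascular macrophages, was at 24.4 CPM in members and 255 CPM in the other cells, Cd163, the haemoglobin scavenger receptor, at 54.6 and 330 CPM, and Ccl8, a monocyte-attracting chemokine, at 325 and 1986 CPM. Cd209f, a C-type lectin, was the lowest (-6.05, -7.70 to -4.79), and Mrc1, the mannose receptor, was the exception, at 676 against 1245 CPM (-0.88). Some of the lowest genes came from few cells. Cxcl13, a B cell chemokine, was at 13.1 CPM in members and 536 CPM in the other cells, yet 9.32% of the latter carried it, and Saa3 and Prg4 were found in 8.07% and 3.73% of them.

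Antigen presentation genes were lower as well, with 8 of the 9 genes of the MHC class II list lower by 2-fold or more (median -1.36). The list also holds Cd72, a membrane receptor that is not an MHC class II gene, and Cd72 was its lowest gene. Cd74, the invariant chain, was at 2772 CPM in members and 7101 CPM in the other cells, H2-Ab1 at 1805 and 5154 CPM, and Ciita, the transactivator of these genes, at 28.7 and 91.8 CPM. The smallest difference was that of H2-DMa (-0.93). B cells and dendritic cells carry these genes at high level. B cell markers summed to 44.3 CPM in members and 104 CPM in the other cells, dendritic cell markers to 11.2 and 78.6 CPM, and their part in this difference was not tested. Without the 93 members above, 4 of the 9, Cd72 (-1.59) among them, passed 2-fold and the median was -0.95. The co-stimulatory genes Cd80, Cd40 and Icosl were lower by 2-fold or more, at 40.9 against 87.4 CPM for Cd80, and Cd86 was at 110 against 199.7 CPM (-0.87). Of these, Cd40 alone passed 2-fold without the 93 members.

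Among signals to other cells, 5 of 15 chemokine genes were lower by 2-fold or more and 1, Cxcl14, was higher. Ccl7 was at 69.9 CPM in members against 534 CPM, Ccl2, which attracts CCR2+ monocytes, at 172 against 706 CPM, and Ccl4 at 45.6 against 255 CPM. Of the cytokines, Il10 (6.87 against 49.9 CPM), Il1b (1745 against 4031 CPM) and Il6 (63.7 against 130 CPM) were lower by 2-fold or more and none was higher. Without the 93 members with a high alveolar sum, Il1b (-0.77) and Il6 (-0.83) no longer passed 2-fold and Il10 did. Growth factors and matrix genes did not stand apart: of 12 measured, Hbegf was 2-fold lower and none was 2-fold higher, and the median was 0.05. Hbegf did not pass 2-fold without those 93 cells (-0.72). Fn1, fibronectin, was at 4619 against 3692 CPM, Igf1 at 621 against 330 CPM, Pdgfa at 60.3 against 30.8 CPM and Tgfb1 at 40.6 against 38.9 CPM. Of the genes for receptors of osteopontin, Itgb5 was at 139 against 64.6 CPM (1.11) and Cd44 at 738 against 504 CPM (0.55).

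Monocyte genes gave no common direction. Ly6c2, which marks classical monocytes, was higher in members at 32.8 against 13.9 CPM (1.23), while Plac8 was lower at 38.4 against 120 CPM (-1.65) and Ccr2, the receptor for Ccl2, was at 647 against 1097 CPM (-0.76). Of 8 genes measured, 1 was 2-fold or more higher and 1 lower, and the median was -0.34. Among 16 transcription factor genes, Bhlhe41 was the one 2-fold or more higher (47.8 against 10.3 CPM, 2.22). Mitf and Tfeb, which drive lysosomal genes, were at 42.8 against 24.2 CPM (0.82) and 28.7 against 16.2 CPM (0.83), and Maf, a factor of resident macrophages, was at 180 against 353 CPM (-0.98).

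Other lists held single genes that stood out. Of 8 alveolar identity genes outside the rule, 4 were 2-fold or more higher in members and none lower, and 7 were above 0, with Pparg, the factor that alveolar macrophages depend on, at 37.8 against 8.08 CPM (2.23), Cd200r4 (1.76), Il18 (1.03) and F7 (1.02). Of 10 proteases and inhibitors, Ctsk and Mmp19 (1.85) were higher and Mmp9, a gelatinase, was lower (-1.68), while Mmp12, macrophage elastase, was at 1031 against 521 CPM (0.98). Of 9 genes of arginine metabolism and alternative activation, Slc7a2, an arginine transporter, was higher (1.06), and Retnla (-1.53) and Odc1, which turns ornithine into putrescine (-1.20), were lower. Among 15 phagocytic and sensing receptors, Mertk was higher at 148 against 71.9 CPM (1.04) and Clec10a lower (-2.65), and of 5 interferon-stimulated genes Cxcl9 was lower (-2.93). Without the 93 members with a high alveolar sum, Il18 (0.64), F7 (0.82), Retnla (-0.91), Odc1 (-0.82) and Mertk (0.73) no longer passed 2-fold, 2 of 7 alveolar identity genes did, and Pparg and Bhlhe41 fell under the minimum of 20 CPM. Glycolysis and hypoxia genes did not differ by 2-fold in any of 17 cases (median 0.10), and of 9 iron and antioxidant genes Prdx1, a peroxidase, was the one that did (1.39).

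**Figure D2:**
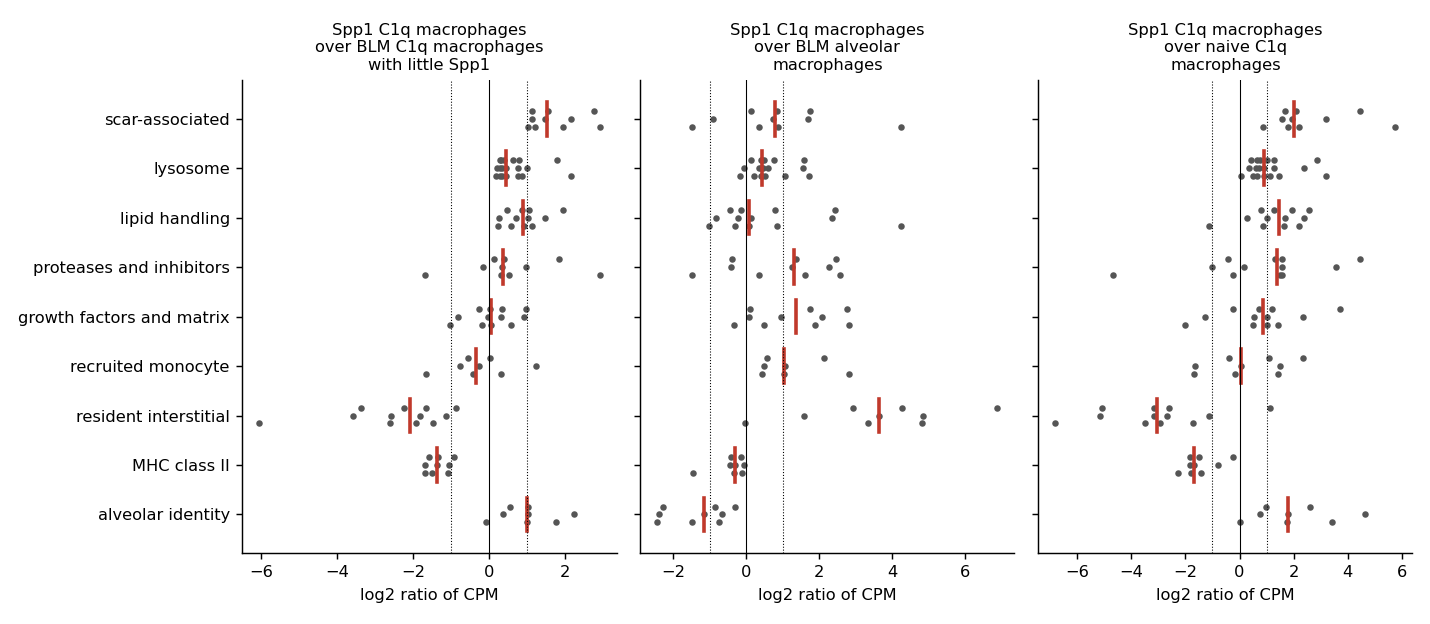
Each point is a gene of the list named on the left, placed by the log2 ratio of its level in Spp1 C1q macrophages over that in the group named above each panel, and red bars are list medians. Dotted lines mark 2-fold. Scar-associated genes lie right of 1 in the left panel (median 1.52), and resident interstitial genes lie left of 0 there (median -2.09) but mostly right of 1 in the middle panel (median 3.63).

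The upstream sequences of Spp1, of Gpnmb and of Ctsd, the lysosomal gene with the largest ratio in this comparison, are shown because genes of the rule and lysosomal genes were high in the same cells. Each covers the 250 bases before the RefSeq start (build GRCm38.p6), 5′ to 3′ on the strand of the gene, and capitals mark TCACGTG on either strand, the E-box that factors of the MITF and TFEB family recognise. The Ctsd window starts from the RefSeq start, and 211 of its 250 bases lie inside the gene as the GENCODE annotation below places it. The windows are chr5:104434861-104435110 on the plus strand for Spp1 (the first of its 2 starts), chr6:49036268-49036517 on the plus strand for Gpnmb and chr7:142387828-142388077 on the minus strand for Ctsd.
Spp1: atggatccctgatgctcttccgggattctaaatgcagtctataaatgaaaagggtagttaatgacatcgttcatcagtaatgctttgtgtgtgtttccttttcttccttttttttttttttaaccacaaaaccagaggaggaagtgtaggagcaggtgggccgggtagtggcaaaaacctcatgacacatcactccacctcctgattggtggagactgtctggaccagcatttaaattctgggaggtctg
Gpnmb: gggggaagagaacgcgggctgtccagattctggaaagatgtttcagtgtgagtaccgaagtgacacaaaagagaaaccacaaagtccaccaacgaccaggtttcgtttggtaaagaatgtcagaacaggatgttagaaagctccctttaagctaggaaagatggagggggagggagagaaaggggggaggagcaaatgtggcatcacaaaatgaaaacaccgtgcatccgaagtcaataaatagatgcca
Ctsd: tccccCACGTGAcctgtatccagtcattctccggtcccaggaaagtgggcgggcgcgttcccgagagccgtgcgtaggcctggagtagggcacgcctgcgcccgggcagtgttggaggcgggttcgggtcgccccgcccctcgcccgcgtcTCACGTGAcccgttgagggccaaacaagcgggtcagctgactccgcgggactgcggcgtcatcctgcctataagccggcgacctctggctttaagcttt
The Ctsd window held the motif from 245 to 239 bases before the start and again as a pair of overlapping matches, 1 per strand, from 99 to 92 bases before it, and neither of the other windows held it. Of 15 lysosomal genes with an entry, Ctsd, Ctsa, Lamp1 and Lgmn (26.7%) held TCACGTG in this window, against 3.58% of 27025 genes. TGANTCA, the motif of AP-1 factors, was in none of the 3 windows, in Cd68 and Psap among the lysosomal genes, and in 7.82% of all genes. A match is a description of these letters only. In the annotation of the same build (GENCODE vM21), the genes are protein coding and lie at chromosome 5, 104435118 to 104441050 (Spp1), chromosome 6, 49036546 to 49070929 (Gpnmb), chromosome 7, 142375911 to 142388038 (Ctsd) and chromosome 10, 24915221 to 24927484 (Arg1).

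The second comparison set members beside the alveolar macrophages of the same lungs, which carried Spp1 at 5426 CPM themselves. These groups were split by which was larger, the C1q sum or the alveolar sum, so values are descriptions. Genes that go with those sums can differ in part through the rule. With the genes of the rule left out, members were higher in genes of the interstitium and in monocyte chemokines and lower in alveolar genes. Among 5537 genes, 362 (6.54%) were 2-fold or more apart, 204 (3.68%) higher and 158 (2.85%) lower in members, with a median of -0.07 over all genes. Of 9 resident interstitial genes measured, 8 were 2-fold or more higher (median 3.63): Folr2, the folate receptor of tissue macrophages, was at 97.4 against 3.43 CPM and Cd163 at 54.6 against 1.89 CPM, though Cd163 was found in 5.86% of members and Folr2 in 22.5%. Ranked by the interval end nearer 0, Ccl8 was the highest gene of this comparison (6.89, 6.18 to 7.70), found in 13.4% of members and 3.30% of alveolar macrophages. Next in that order was Retnla, an alternative activation gene, at 1588 against 65.0 CPM (4.61), found in 39.1% and 33.6% of cells. Apoe was at 6021 against 317 CPM (4.25, 4.18 to 4.32) and was found in 92.8% of members, and Stab1, a scavenger receptor, was found in 40.4%.

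Recruitment and matrix genes also stood above alveolar macrophages. Of 16 chemokine genes, 8 were 2-fold or more higher and 1, Ccl22, lower, with Ccl2 at 172 against 9.77 CPM, Ccl7 at 69.9 against 2.74 CPM and Ccl24, an eosinophil chemokine, at 389 against 21.1 CPM. Of 10 growth factor and matrix genes, 5 were 2-fold or more higher and none lower (median 1.35): Thbs1, thrombospondin, was at 1476 against 209 CPM, Hbegf at 75.9 against 11.1 CPM, Vegfa at 173 against 40.8 CPM, Pdgfa at 60.3 against 16.3 CPM and Igf1 at 621 against 185 CPM. Among proteases and their inhibitors, Plau (2.56), Mmp12 (2.45) and Timp1 (2.26) were higher, while Ctsk was lower (-1.49, at 320.4 against 902 CPM). Scar-associated genes were divided, with 3 of 10 higher (Apoe, Syngr1 and Trem2) and Ctsk lower. The transcription factor gene Maf was at 180 against 12.5 CPM.

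All 9 alveolar identity genes outside the rule that were measured lay below 0, and 5 passed 2-fold (median -1.14). Chil3, a chitinase-like protein, was at 1936 CPM in members and 10171 CPM in alveolar macrophages, Il18 at 61.5 and 300.4 CPM and Pparg at 37.8 and 106 CPM. Itgax, the CD11c integrin, differed least, at 699 and 857 CPM (-0.29). The lowest genes were Sept3, a septin, at 1.56 and 71.3 CPM, Itgae, the CD103 integrin, at 2.19 and 56.6 CPM, Ly75, an endocytic receptor, at 5.31 and 84.4 CPM, and Perp, a membrane protein, found in 4.89% and 53.6% of cells (-3.87). Wfdc21 was found in 35.5% of members and 76.7% of alveolar macrophages, at 98.4 and 888 CPM. Dendritic cell markers summed to 84.9 CPM in alveolar macrophages, of which 51 had 3 or more UMIs of them, against 11.2 CPM in members, and Sept3 and Itgae were found in 11.3% and 11.1% of alveolar macrophages. The part of the dendritic cell markers in these values was not tested.

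Set against both neighbours, members lay between them for some lists and beyond them for others. Of 5237 genes measured in both comparisons, 48.2% had a level in members between those of the other groups. The level lay between for 8 of 9 resident interstitial genes and 7 of 8 alveolar identity genes, whereas it was the highest of the 3 for 17 of 19 lysosomal genes and 8 of 10 scar-associated genes and the lowest of the 3 for 8 of 8 MHC class II genes, against 1040 and 1671 of all 5237 genes that were highest and lowest. Without the 93 members with a high alveolar sum, the median of the MHC class II genes over alveolar macrophages was 0.04 in place of -0.31. There were 18 genes 2-fold or more above both groups and 15 2-fold or more below both. Above both stood Ctsl, Trem2, Apoe, Cd36, Syngr1, Rnf128, Slc6a8, Slc36a2, Igf2r, the receptor that carries lysosomal enzymes, and Olfml3, a secreted matrix protein, at 139 CPM against 45.5 and 8.57 CPM. Trem2 (log2 ratio 0.88) and Apoe (0.66) no longer passed 2-fold over C1q macrophages with little Spp1 when those 93 members were left out. Below both stood Ccl17, at 49.0 CPM against 251 and 386 CPM, Slpi, a protease inhibitor, at 83.4 against 373 and 182 CPM, Il1r2, the decoy receptor for interleukin-1, at 48.4 against 137 and 142 CPM, and H2-DMb2. Dendritic cell markers stood at 11.2 CPM in members against 78.6 and 84.9 CPM, and their part here was not tested. These genes were picked by their values in these comparisons and are a description.

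**Figure D3:**
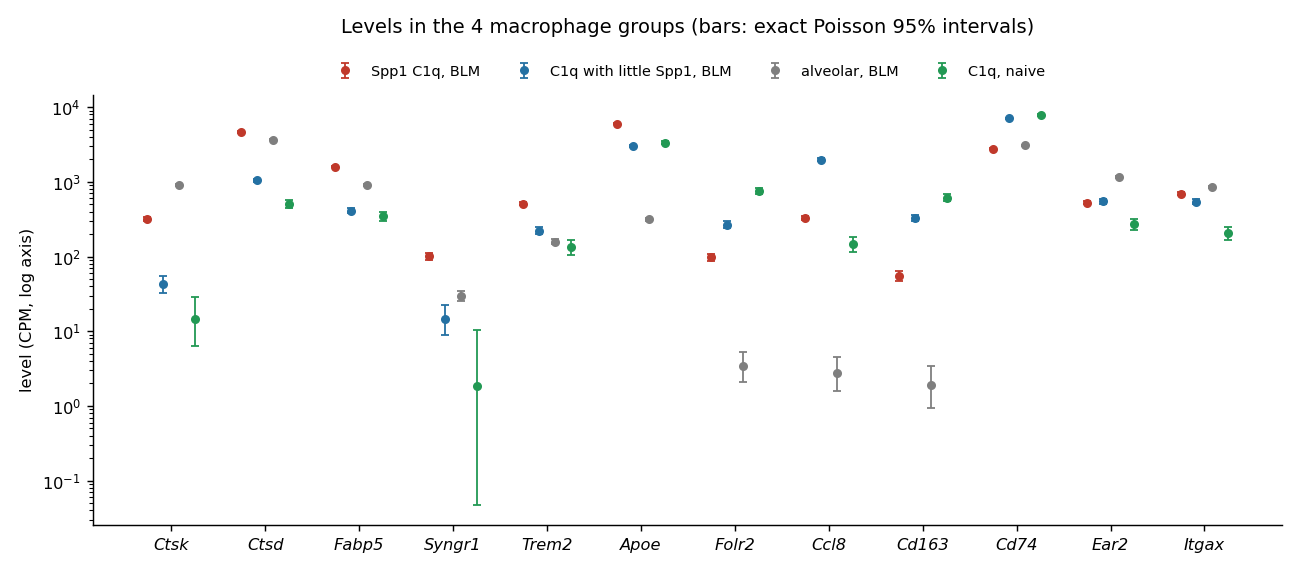
Levels of 12 genes in CPM (log axis) in the 4 macrophage groups, with exact Poisson 95% intervals as bars. Members (red) stand highest for Ctsd, Fabp5, Syngr1, Trem2 and Apoe, lie between C1q macrophages with little Spp1 (blue) and alveolar macrophages (grey) for Ctsk, Folr2, Ccl8 and Cd163, and are the lowest for Cd74.

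The third comparison set members beside C1q macrophages of naive lung. Library and injury coincide here, so a difference between the libraries cannot be told apart from one between the conditions. The sides were also chosen differently. Members were picked for Spp1, Arg1 and Gpnmb, whereas the naive side was all C1q macrophages, of which 1 of 92 reached that limit. This choice cannot be told apart from the others either. Among 5767 genes, 1096 (19.0%) were 2-fold or more apart, 368 (6.38%) higher and 728 (12.6%) lower in members, with a median of -0.11. Scar-associated genes were 2-fold or more higher in 9 of 10 cases (median 2.01), with Syngr1 at 100.2 against 1.84 CPM and Ctsk at 320.4 against 14.7 CPM, and Apoe, at 6021 against 3332 CPM, was the exception (0.85). Lysosomal genes were 2-fold or more higher in 7 of 19 cases and above 0 in all 19 (median 0.89), led by Ctsd at 4655 against 507 CPM. Of 12 lipid genes, 8 were 2-fold or more higher and 1, Cd36, was lower, at 503 against 1107 CPM.

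The genes farthest apart were Lhfpl2 at 266 against 9.21 CPM, Rnf128 at 199 against 5.53 CPM, F7, coagulation factor VII, at 319 against 12.9 CPM, Pdpn, podoplanin, at 332 against 14.7 CPM, and Clec4n, which encodes the fungal receptor dectin-2, at 928 against 70.0 CPM. F7 was found in 64.2% of members, Lhfpl2 in 61.9% and Pdpn in 59.0%, against 5.43%, 5.43% and 4.35% of naive C1q macrophages. Inhba, the activin A subunit, was at 71.8 CPM in members and had no UMI in naive C1q macrophages, and Rnase2a and Cspg4, at 75.3 and 65.6 CPM, had none there either. Against the floor of 3 UMIs over the group, Rnase2a was 13.6-fold and Cspg4 11.9-fold higher, and the log2 ratio of Inhba was 3.70. The lower interval ends were log2 ratios of 3.46 for Rnase2a, 3.26 for Cspg4 and 3.39 for Inhba. When the processing was changed, the lowest log2 ratios were 1.46 for Rnase2a, 0.85 for Cspg4 and 0.93 for Inhba. Of 12 growth factor and matrix genes, 6 were 2-fold or more higher, among them Fn1 at 4619 against 912 CPM, and Hbegf and Pdgfb were lower. Timp1, an inhibitor of metalloproteases, was at 86.8 against 7.37 CPM. Slc7a11, the cystine transporter, was at 69.3 against 1.84 CPM (5.23, 2.74 to 10.54), the largest ratio of 9 iron and antioxidant genes, of which 4 were 2-fold or more higher, as were 6 of 17 glycolysis and hypoxia genes.

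Resident interstitial genes were 2-fold or more lower in 11 of 12 cases (median -3.05). Lyve1 was at 24.4 CPM in members and 862 CPM in naive C1q macrophages, Folr2 at 97.4 and 750 CPM, F13a1 at 187 and 1666 CPM and Selenop, the selenium carrier, at 2136 and 7109 CPM, while Ccl8 was higher in members (1.14). Of the 9 genes of the MHC class II list, which also holds Cd72, 7 were lower by 2-fold or more, with H2-Eb1 at 877 against 4220 CPM. Retnla was at 1588 against 10980 CPM, Mmp9 at 10.3 against 265 CPM and Maf at 180 against 752 CPM. Siglech, at 73.7 CPM in naive C1q macrophages, and Cd209g, at 55.3 CPM, had no UMI in members, and Pla2g2d, Cd209a and Fxyd2 were each found in under 2% of members and in 20.7% or more of naive C1q macrophages. B cell markers summed to 413 CPM in the naive cells against 44.3 CPM in members, T cell markers to 129 against 39.7 CPM, dendritic cell markers to 262 against 11.2 CPM and neutrophil markers to 752 against 338 CPM, and their part in the lower values was not tested.

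Arg1 and Gpnmb overlapped in part of the members. At 0.1% of UMIs or more for each gene by itself, 128 members were rich in Arg1 only, 62 in Gpnmb only, 33 in both and 84 in neither. In all, 33 of 95 Gpnmb-rich members were also Arg1-rich. Gpnmb-rich cells were 20.5% of Arg1-rich members (14.5 to 27.6%) and 42.5% of Arg1-poor members (34.3 to 50.9%). The limit on the sum of the 3 genes admits Arg1-poor cells through the other genes, so that this direction is in part built into the rule. Spp1 was at 20232 CPM in members rich in both, 10952 CPM in those rich in Gpnmb only, 5671 CPM in those rich in Arg1 only and 4300 CPM in the rest. Of the 93 members with a high alveolar sum, 57 (61.3%) were Gpnmb-rich, against 38 of 214 (17.8%) of the others, whereas Arg1-rich cells were 50.5% and 53.3%.

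**Figure D4:**
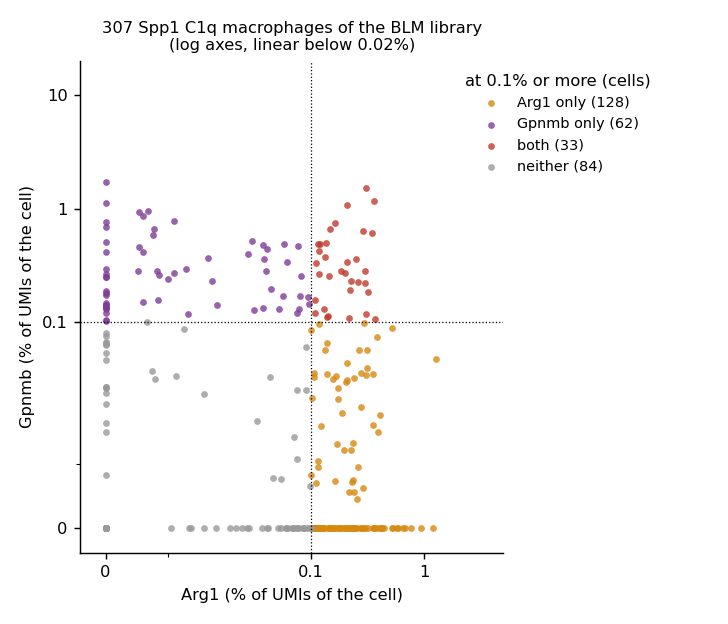
Each point is 1 of the 307 BLM members, placed by the percent of its UMIs in Arg1 (x axis) and in Gpnmb (y axis), on log axes that are linear below 0.02%. Dotted lines mark 0.1%. Of the 161 Arg1-rich cells, 128 lie below the Gpnmb line, and 33 cells are past both lines.

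Split by Arg1 alone, members differed by 2-fold in few genes. Arg1 chose the cells here, so its own values are left out. Arg1-poor cells met the limit on the sum with the help of Spp1 or Gpnmb. Gpnmb-rich cells were 42.5% of them and 20.5% of Arg1-rich members. Differences in genes that go with Spp1 or Gpnmb can therefore come in part from the rule, and that part was not tested. Of 5427 genes, 68 (1.25%) were 2-fold or more apart between the 161 Arg1-rich and the 146 Arg1-poor members, 32 (0.59%) higher and 36 (0.663%) lower in the first, with a median of 0.03. Of 9 genes of arginine metabolism and alternative activation, 2 were 2-fold or more higher and none lower (median 0.39). Among the genes with the largest ratios, Ccl24 was at 637 against 83.1 CPM (2.94, 2.66 to 3.22), Retnla at 2170 against 868 CPM (1.32, 1.23 to 1.42), Mgl2, a galactose lectin, at 199 against 69.8 CPM, and Alox15, a lipoxygenase, at 60.4 against 13.3 CPM. Rnase2a, an eosinophil-type ribonuclease, was found in 23.0% against 6.85% of cells (3.16), and Hmox1, heme oxygenase, at 466 against 205 CPM. The heat shock genes Hspa1a and Hspa1b were also higher, at 70.6 against 25.1 CPM and 86.4 against 18.9 CPM, and stood at 324 and 407 CPM in B cells of the same library. Lower in Arg1-rich members were Mmp12 at 437 against 1766 CPM (-2.01, -2.13 to -1.90), Cxcl3 at 26.6 against 113 CPM, Vcam1 at 10.7 against 55.2 CPM and Rsad2, an interferon-stimulated gene, at 10.2 against 57.3 CPM. By share of cells with a UMI, Rsad2 was found in 6.83% against 8.90% and Vcam1 in 6.21% against 11.6%. Of the genes at a higher level, Alox15 was found in 6.83% against 2.74% and Retnla in 41.6% against 36.3%. Hmox1 was found in fewer Arg1-rich cells, 51.6% against 56.8%. All 10 scar-associated genes lay below 0 but none passed 2-fold (median -0.31), and neither did any of 19 lysosomal genes (median -0.15) or of 8 MHC class II genes (median 0.33).

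A sharper contrast, chosen after these values were seen, set the 62 members rich in Gpnmb only beside the 128 rich in Arg1 only. Of 5438 genes, 358 (6.58%) were 2-fold or more apart, 154 (2.83%) higher and 204 (3.75%) lower in the Gpnmb cells, with a median of -0.12. Scar-associated genes were 2-fold or more higher in 7 of 10 cases (median 1.21): Fabp5 was at 3048 against 814 CPM (1.90), Syngr1 had a log2 ratio of 1.87, and Cd9 (0.29) and Lpl (0.76) differed least. Lysosomal genes were above 0 in all 19 cases (median 0.64), with Ctsd at 6963 against 2730 CPM, and 6 of 13 lipid genes were 2-fold or more higher. Mfge8, which bridges dying cells to phagocytes, was at 453 against 41.3 CPM (3.46, 3.03 to 3.91) and was found in 46.8% against 25.8% of cells, Fabp4 was at 170 against 23.0 CPM, and Hpse, heparanase, was found in 40.3% against 10.2%. Mmp12 was at 2003 against 406 CPM.

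Several genes were higher in the Arg1 cells. Ccl24 was at 868 CPM in them and 12.3 CPM in the Gpnmb cells (-6.14, -7.27 to -5.21), Retnla at 2863 and 67.2 CPM (-5.41, -5.85 to -5.01) and Mgl2 at 263 and 16.5 CPM. A Retnla UMI was found in 43.8% of the Arg1 cells and 38.7% of the Gpnmb cells, so that the shares were close while the levels were far apart. Of 9 genes of arginine metabolism and alternative activation, 3 (Retnla, Chil3 and Slc7a2) were 2-fold or more lower in the Gpnmb cells and none higher (median -0.81). Areg, which encodes amphiregulin, a ligand of the epidermal growth factor receptor, was at 266 and 6.86 CPM and was found in 32.0% and 6.45% of cells. Of 8 MHC class II genes, 7 were 2-fold or more lower in the Gpnmb cells (median -1.65), with Cd74 at 1287 against 3924 CPM. Of 8 monocyte genes, 4 were 2-fold or more lower and 1 higher, with Ccr2 at 182 against 931 CPM. Alox15, at 84.1 CPM in the Arg1 cells, was found in 7.81% of them and had no UMI in the Gpnmb cells. With 3 UMIs set for the Gpnmb cells it was 20.4-fold lower there, a log2 ratio of -4.35 with an interval end of -4.03. That ratio ranged from -5.28 to -1.37 when the processing was changed.

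Members rich in both genes were nearer to the Gpnmb cells in several of these levels. They carried Fabp5 at 2846 CPM, Ctsd at 9264 CPM, Mfge8 at 347 CPM and Cd74 at 788 CPM, and Retnla, at 457 CPM, lay between. Mmp12, at 514 CPM, differed from this: it was near the 406 CPM of the Arg1 cells, and it was at 1521 CPM in members rich in neither gene. The cells rich in neither were near the Arg1 cells for Fabp5 (623 against 814 CPM), Cd74 (3687 against 3924 CPM) and Ccr2 (960 against 931 CPM), with Ccl24 at 157 CPM. Some genes of the rule also differed, Ms4a7 standing at 560 CPM in the Gpnmb cells and 130 CPM in the Arg1 cells, and C1qc at 2493 and 1336 CPM. Several of these values rest on the members with a high alveolar sum. Without those 93, the log2 ratio of Gpnmb cells over Arg1 cells was -1.31 for Mmp12 (2.30 with them), 0.96 for Fabp4 (2.89) and 2.33 for Mfge8 (3.46). The 93 comprised 22 of the 33 members rich in both genes and 35 of the 62 rich in Gpnmb only. They also held 25 of the 128 rich in Arg1 only and 11 of the 84 rich in neither. Their part in the levels of members rich in both was not tested.

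**Figure D5:**
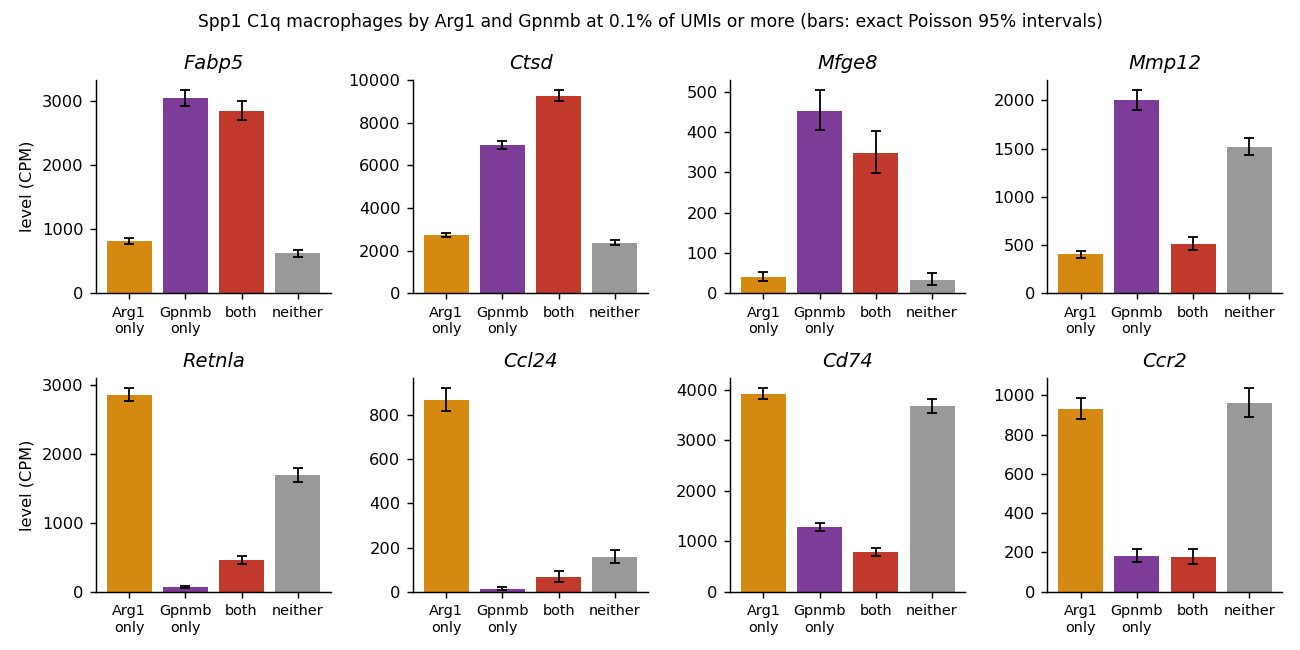
Levels in CPM of 8 genes in members rich in Arg1 only (128 cells), Gpnmb only (62), both (33) or neither (84), with exact Poisson 95% intervals as bars and axes that start at 0. Fabp5, Ctsd and Mfge8 are higher in both groups rich in Gpnmb, and Retnla, Cd74 and Ccr2 in both groups that are not.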

How the data were processed

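Living CD45+ lung cells were profiled with BD Rhapsody in 2 libraries. For either library the authors deposited a table of counts of UMIs in cells by genes, which per the file headers came from the BD Rhapsody WTA pipeline 1.8 with GRCm38 and GENCODE vM19, after its UMI error correction. The counts were whole and not normalized, and preceded the authors' filter in SeqGeq. A gene absent from a table was taken as 0. Counts were summed over the cells of a group and given as CPM with exact Poisson intervals, and ratios with exact conditional intervals (scipy 1.17.1). A side with no UMI was given 3 counts. Genes entered with a mean of 20 CPM and 20 UMIs over both sides, and 2-fold was the limit used. With 1 library per group nothing was tested. Named genes were the 10 highest and 10 lowest by the interval end nearer 0, without ribosomal, mitochondrial and clone-named genes, plus the 2 highest and 2 lowest of each list. Other genes of the lists and those above or below both neighbours were named after their values were seen. Members, lists and groups were chosen with earlier results of these data known. Doublets were scored with Scrublet in scanpy 1.11.5 and not removed. Sums and intervals were tested on simulated data. Apoc2, Clec7a and Hbb-bs were not analysed here, and neither was the promoter of Arg1. Alternatives left out cells, thinned each cell to 1000 UMIs, or changed the limits, totals and filters. A result of 1 further gene is not reported here.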

Additional observations from a re-analysis of the deposited data

How the results depend on the processing

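The BLM share of 6.78% became 5.63% with the C1q limit at 0.2% of UMIs, 5.46% with the Spp1 limit at 0.2% and 4.73% with the alveolar sum under 0.1%, and the naive share became 0 without the highest doublet scores. Counts of genes 2-fold apart, higher and then lower in members, moved with the filter: 378 and 431 (little Spp1), 514 and 576 (alveolar) and 768 and 1193 (naive) with no CPM minimum, 63 and 96, 117 and 79, and 215 and 339 at 50 CPM, and 452 and 510, 437 and 635, and 1058 and 1132 with the B cell level subtracted. Thinning gave 205 higher (little Spp1), 351 lower (alveolar) and 391 lower (naive), and the alveolar sum under 0.1% gave 65 higher (little Spp1). For Arg1-rich against Arg1-poor members the counts became 173 and 193, 14 and 9, and 349 and 250 under those 3 settings, 86 and 76 thinned, 92 and 114 as means over cells, 53 higher with the Spp1 limit at 0.2% and 60 lower with the alveolar sum under 0.1%. For the contrast added later, Gpnmb cells against Arg1 cells, they became 254 and 452, 69 and 73, and 440 and 639, 77 and 133 thinned, 282 higher as means over cells and 245 higher with the alveolar sum under 0.1%. The 10 highest and 10 lowest genes of each comparison were run, genes of the lists only as medians. They kept their direction except, thinned, Pla2g2d against little Spp1 (0.12), Sox4 by Arg1 (0.25) and Ciita in the added contrast (0.048), and there Mmp12 (-1.31) and Mamdc2 (-0.12) with the alveolar sum under 0.1%. With the B cell level subtracted, the MHC class II median became -6.86 in place of -1.36 (little Spp1) and -8.50 in place of -1.70 (naive), as B cells carry these genes. Thinning leaves few UMIs per gene; the cause of the other changes was not tested. No paired analysis was possible because each group had 1 library, and no library could be left out. Depth limits genes carried by few cells.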
